A study of Homo sapiens with 8 samples.

Results

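The 10 genes described here encode the Krüppel-like factors KLF2, KLF3, KLF4, KLF5, KLF6, KLF9, KLF10, KLF11, KLF13 and KLF16, and were taken by name from 19794 protein-coding genes of the annotation. RNA polymerase II (RNAPII) occupancy was read from chromatin immunoprecipitation sequencing (ChIP-seq) peak lists of MDA-MB-453, a human breast cancer cell line that expresses the androgen receptor and lacks estrogen receptor. The cells were grown in high-glucose DMEM with serum and exposed for 4 h to vehicle or to 600 nM CDDD11-8 (D11-8 in the sample labels), an inhibitor of cyclin-dependent kinase 9 (CDK9). Each condition had 2 libraries from independent passages, precipitated with antibody CTD4H8 against RNAPII, so the 4 libraries describe 1 cell line at 1 dose and 1 time. An input library accompanied each of them and was not analysed here.

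CDK9 phosphorylates RNAPII and its pausing factors, which releases the polymerase from its pause just downstream of the transcription start site (TSS) into the gene body. After the polyadenylation site, at the transcription end site (TES), the polymerase runs on before it leaves the template. Krüppel-like factors are zinc finger proteins that bind GC boxes and CACCC elements. KLF2, KLF4, KLF5 and KLF6 are best known as activators, KLF3 recruits the CtBP corepressors, and KLF9, KLF10, KLF11, KLF13 and KLF16 recruit the SIN3A corepressor. Several of them, among them KLF2, KLF4, KLF6 and KLF10, are immediate early or early response genes with short transcripts.

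The 250 bases before the TSS are printed for the members whose start the results turn on, 5′ to 3′ on the gene's own strand. KLF2 (chr19:16435387-16435636, plus strand) and KLF6 (chr10:3827474-3827723, minus strand) carried the strongest promoter peaks of the family with vehicle. KLF9 (chr9:73029574-73029823, minus strand) had a peak that began downstream of the TSS with vehicle, and the peak of KLF13 (chr15:31618788-31619037, plus strand) lay mostly in and upstream of the printed window. KLF5 is shown at its longest isoform (chr13:73628864-73629113, plus strand), where no peak was listed, and at the start of its canonical isoform (chr13:73632893-73633142, plus strand), where one was. Coordinates are those of GRCh37 (hg19). Capitals mark, on either strand, the GC box core GGGCGG, the Krüppel-like factor element CACCC, the TATA motif TATAAA and the CCAAT box.
KLF2: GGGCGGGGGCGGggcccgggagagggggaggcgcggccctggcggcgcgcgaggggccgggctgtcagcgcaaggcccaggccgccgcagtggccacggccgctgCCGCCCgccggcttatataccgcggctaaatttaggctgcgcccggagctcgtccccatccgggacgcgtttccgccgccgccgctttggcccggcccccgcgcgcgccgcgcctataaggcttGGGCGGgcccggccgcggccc
KLF6: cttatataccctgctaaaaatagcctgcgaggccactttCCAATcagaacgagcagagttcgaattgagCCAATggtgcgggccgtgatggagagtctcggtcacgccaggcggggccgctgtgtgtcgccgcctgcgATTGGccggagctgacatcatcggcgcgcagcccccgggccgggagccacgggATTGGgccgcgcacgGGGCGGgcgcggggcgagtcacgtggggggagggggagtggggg
KLF9: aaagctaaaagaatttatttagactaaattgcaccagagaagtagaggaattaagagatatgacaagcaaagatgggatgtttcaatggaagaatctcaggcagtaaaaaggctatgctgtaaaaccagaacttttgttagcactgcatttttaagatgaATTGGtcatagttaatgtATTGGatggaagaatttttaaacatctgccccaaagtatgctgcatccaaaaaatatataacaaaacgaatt
KLF13: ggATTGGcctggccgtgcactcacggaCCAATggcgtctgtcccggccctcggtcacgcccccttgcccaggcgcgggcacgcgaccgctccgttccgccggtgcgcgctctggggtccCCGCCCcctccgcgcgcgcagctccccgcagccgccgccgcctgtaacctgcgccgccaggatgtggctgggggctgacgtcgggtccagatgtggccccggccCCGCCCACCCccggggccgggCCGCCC
KLF5 longest isoform: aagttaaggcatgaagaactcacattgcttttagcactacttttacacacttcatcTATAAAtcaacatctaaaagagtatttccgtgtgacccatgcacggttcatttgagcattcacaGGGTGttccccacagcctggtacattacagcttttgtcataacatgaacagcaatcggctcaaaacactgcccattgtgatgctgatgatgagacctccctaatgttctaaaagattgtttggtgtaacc
KLF5 canonical isoform: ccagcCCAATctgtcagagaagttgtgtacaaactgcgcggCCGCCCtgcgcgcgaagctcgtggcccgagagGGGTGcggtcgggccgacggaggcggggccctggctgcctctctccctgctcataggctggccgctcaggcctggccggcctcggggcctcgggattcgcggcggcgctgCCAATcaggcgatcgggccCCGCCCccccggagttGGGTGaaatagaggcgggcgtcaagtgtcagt
GGGCGG, the core of the GC box, stood in this window in 8 of 10 members, against 54.1% of 19794 genes, and was missing for KLF9 and the longest isoform of KLF5. CACCC was found for 4 of 10 members (KLF3, KLF5, KLF10 and KLF13) and for 58.0% of all genes. CCAAT was found for 5 of 10 members and 33.2% of all genes, and TATAAA for the longest isoform of KLF5 alone against 9.44% of all genes. The CArG box bound by serum response factor was found for 0 of 10 members and 1.09% of all genes. Both strands were searched for each motif, and a window could hold several. The G+C content of the window ranged from 32.4% for KLF9 to 86.4% for KLF16, with a median of 73.8% against 61.6% over all genes. For KLF5 it was 40.8% at the longest isoform and 70.8% at the canonical one.

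Positions are those of the longest protein-coding transcript of GENCODE release 44 on GRCh37 (hg19). On chromosome 19, KLF2 spans 16435637 to 16439496 on the plus strand and KLF16 spans 1852398 to 1863578 on the minus strand. On chromosome 9, KLF4 spans 110247133 to 110252050 and KLF9 spans 72999520 to 73029573, both on the minus strand. KLF3 spans 38665820 to 38703138 on the plus strand of chromosome 4, and KLF5 spans 73629114 to 73651679 on the plus strand of chromosome 13. KLF6 spans 3818189 to 3827473 on the minus strand of chromosome 10, and KLF10 spans 103661012 to 103667953 on the minus strand of chromosome 8. KLF11 spans 10183677 to 10194963 on the plus strand of chromosome 2, and KLF13 spans 31619038 to 31670102 on the plus strand of chromosome 15. The shortest gene was KLF2, at 3.86 kb, and the longest was KLF13, at 51.1 kb.

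Each deposited list gives the summits called in 1 library, joined here into peaks. The vehicle lists held 78306 and 57493 peaks and the CDDD11-8 lists 25897 and 21842, while between 10213 and 10662 genes per library had a peak within 300 bp of the TSS. The lists give no read totals, so the depth behind each peak is unknown and no counting interval could be computed. Of 11 luminal epithelial markers, 10 had a promoter peak in every library (EPCAM had none in any), and ESR1, PGR, KRT5, KRT14 and TP63 had none. Of 5 markers of fibroblasts, endothelium and blood, 4 had none and COL1A1 had one in CDDD11-8 replicate 1 only. Values are given for replicates 1 and 2 in that order. A difference is called when both CDDD11-8 libraries lie above, or both below, the 2 vehicle libraries. With 4 libraries there are 6 ways to split them, and the smallest two-sided p of an exact permutation test is 0.33, so none of the differences could reach 0.05, and each call is read against its share among all genes measured in the same way.

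A promoter peak was present in all 4 libraries for 9 of 10 members. The exception was KLF5, which had no peak at its longest isoform in any library, and the values below cover the other 9 unless KLF5 is named. CDDD11-8 widened the promoter peak of 6 of 9 members, and 64.4% of the 9701 genes whose promoter held a peak in all 4 libraries were called wider. The peak was narrower for 0 of 9 members and for 9.42% of all genes. The members' median width was 3361 and 3533 bp with vehicle and 5650 and 5390 bp with CDDD11-8, against 3035 and 3139 bp and 4921 and 4379 bp for all genes.

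**Figure D1:**
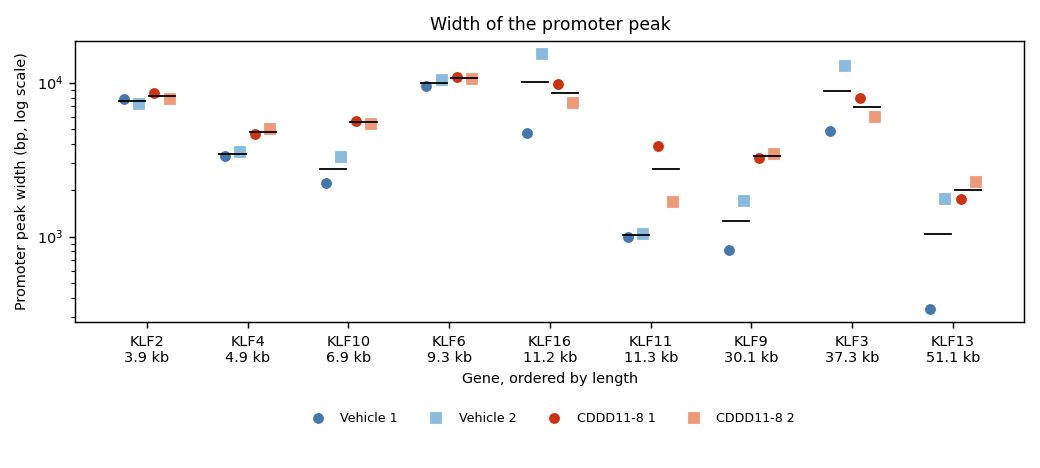
Width of the promoter RNAPII peak (bp) for each Krüppel-like factor gene, with one point per library and a line at each group mean. The 2 CDDD11-8 points lie above both vehicle points for KLF2, KLF4, KLF6, KLF9, KLF10 and KLF11, and KLF3 and KLF16 have their widest peak in vehicle replicate 2.

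Among the activators, KLF2, a regulator of endothelial and T cell quiescence, had a promoter peak of 7859 and 7277 bp with vehicle and 8526 and 7885 bp with CDDD11-8. KLF4, one of the reprogramming factors, went from 3361 and 3533 bp to 4603 and 4989 bp. KLF6, named core promoter element binding protein when it was first cloned, had 9488 and 10382 bp with vehicle and 10855 and 10549 bp with CDDD11-8. The groups did not overlap for any of these genes, but for KLF2 and KLF6 the lower CDDD11-8 value was close to the higher vehicle value.

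Of the 5 members that recruit SIN3A, KLF9, KLF10 and KLF11 were wider with CDDD11-8, and KLF13 and KLF16 overlapped with vehicle. KLF9, a glucocorticoid- and thyroid hormone-responsive gene, rose from 822 and 1711 bp to 3226 and 3448 bp. KLF10, known as TGF-β inducible early gene 1, rose from 2212 and 3278 bp to 5650 and 5390 bp. KLF11, also TGF-β inducible, rose from 997 and 1043 bp to 3863 and 1670 bp. In each of them all CDDD11-8 widths lay above all vehicle widths. The CDDD11-8 libraries of KLF11, however, differed from each other more than the lower of them did from vehicle. Vehicle replicate 1 also held a separate peak, from 1317 to 1748 bp after the TSS in KLF9 and from 1544 to 2126 bp in KLF10. The other libraries had these stretches inside the promoter peak. In KLF11, CDDD11-8 replicate 2 held separate peaks, from -882 to -427 bp and from 1580 to 1943 bp.

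For KLF3, KLF13 and KLF16 the groups overlapped. KLF3 measured 4847 and 12851 bp with vehicle and 7930 and 5995 bp with CDDD11-8. KLF13 measured 337 and 1752 bp with vehicle and 1745 and 2252 bp with CDDD11-8. KLF16 measured 4672 and 15452 bp with vehicle and 9812 and 7422 bp with CDDD11-8. Vehicle replicate 2 was the widest of the 4 libraries for KLF3 and KLF16, and without it 9 of 9 members were wider with CDDD11-8, against 73.2% of all genes. Without vehicle replicate 1, 2 of 9 members were narrower, against 14.8% of all genes.

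The upstream edge moved away from the TSS in 8 of 9 members, and this call was made for 66.5% of all genes. For KLF10 the edge lay at -914 and -661 bp from the TSS with vehicle and at -2203 and -1982 bp with CDDD11-8. The peak of KLF9 began inside the gene with vehicle, at 293 and 97 bp after the TSS, and it began at -428 and -763 with CDDD11-8. KLF11 likewise went from 107 and 146 bp after the TSS to -1649 and -246. KLF16 was the exception, at -4873 and -15609 with vehicle and, after CDDD11-8, -4432 and -4358. Only in vehicle replicate 2 was the promoter peak joined with peaks further upstream. A shift in this direction was called for 7.14% of all genes. Antisense long non-coding RNAs start at -312 bp from the TSS of KLF2, -270 bp from that of KLF6 and -516 bp from that of KLF10, and KLF3-AS1 starts 727 bp inside KLF3. Others lie inside KLF4, between 446 and 1211 bp after its TSS, and inside KLF16, between 1560 and 3329 bp and between 9957 and 11197 bp, the last of which starts next to the KLF16 TES. ChIP carries no strand, so polymerase on these transcripts cannot be told apart from polymerase on the Krüppel-like factor gene.

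The downstream edge reached further into KLF4, KLF9, KLF10, KLF11 and KLF16, which is 5 of 9 members, against 59.3% of all genes. In KLF10 the edge stood 1297 and 2616 bp after the TSS with vehicle and 3446 and 3407 bp with CDDD11-8. In KLF4 it stood at 2181 and 2443 bp and then at 3065 and 3090 bp, and in KLF9 at 1114 and 1807 bp and then at 2797 and 2684 bp. In KLF16 it stood at -202 and -158 bp with vehicle, so that peak ended before the TSS, and then at 5379 and 3063 bp. The strongest summit of the KLF16 peak in vehicle replicate 2 lay at -12534 bp, so this peak may not be that of KLF16 alone. The edge lay less far downstream in 0 of 9 members and in 9.75% of all genes. In KLF2 and KLF6 the edges of the groups overlapped, and the peak reached 5999 and 5900 bp in KLF2 and 7245 and 7272 bp in KLF6 with vehicle. The edges also overlapped in KLF3, at 3671 and 11099 bp and then 5245 and 3697 bp, and in KLF13, at -137 and 322 bp and then 253 and 340 bp.

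**Figure D2:**
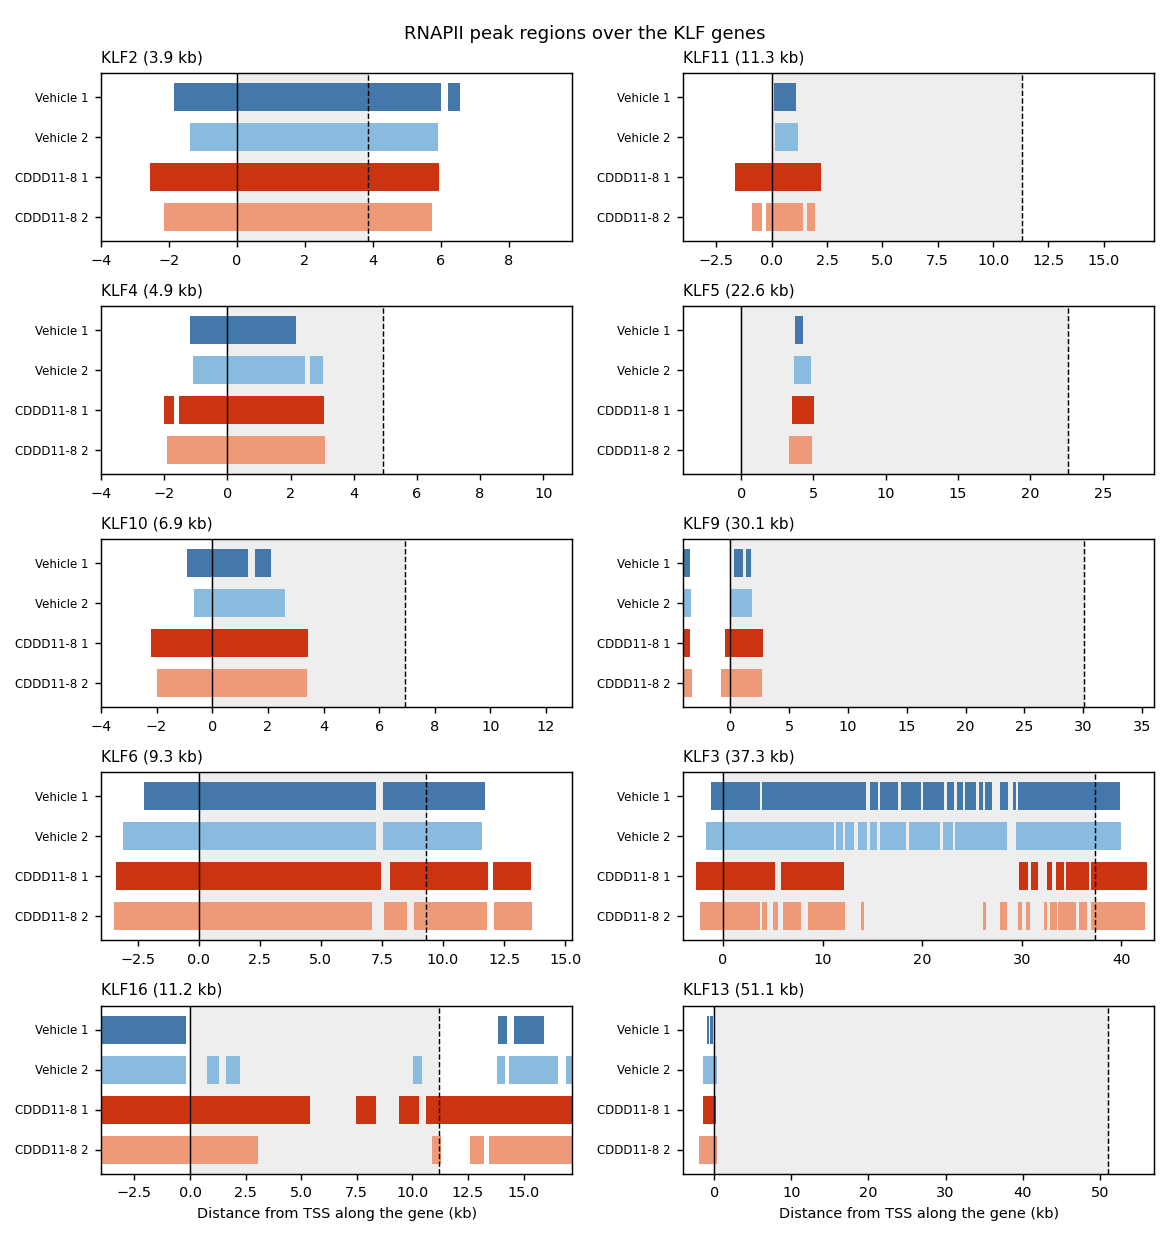
RNAPII peaks along KLF2, KLF6, KLF10, KLF9, KLF3 and the other members, one row per library, by distance from the TSS (kb), with the gene drawn to scale. The bars of KLF10 and KLF9 lengthen on both sides of the TSS with CDDD11-8, those of KLF2 and KLF6 span the gene in all 4 libraries, and the bars in the middle of KLF3 are missing with CDDD11-8.

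The place of the strongest summit within the promoter peak overlapped between the groups in 6 of 9 members. It lay 70 and 91 bp after the TSS of KLF2 with vehicle and 88 and 141 bp after it with CDDD11-8. In KLF13, a regulator of the chemokine gene CCL5 in T cells, it lay at -328 and -417 and then at -383 and -325, upstream of the TSS in every library. Only KLF6 and KLF11 had a strongest summit that was further downstream in both CDDD11-8 libraries, against 22.2% of all genes. Only KLF3 had one less far downstream, against 15.6%. In KLF6 the summit lay at -411 and -562 with vehicle and at -394 and -384 with CDDD11-8, so upstream of the TSS in every library. In KLF3 it lay at 133 and 274 bp and then at 116 and 122 bp. In both genes the nearest values of the groups were close together. KLF11 held a pair of summits in its first intron in every library. With vehicle the nearer summit was the stronger, at 288 and 348 bp after the TSS, with fold enrichments of 3.25 and 5.76 against 2.01 and 3.91 for the summits at 844 and 874 bp. With CDDD11-8 the farther summit was the stronger, at 795 and 818 bp, with 15.3 and 11.2 against 12.8 and 8.93 for the summits at 372 and 354 bp.

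Fold enrichment over input is scaled within each library, so its height was compared as a percentile among all peaks of the same list. KLF6 and KLF2 ranked highest, at 98.9 and 99.9 for KLF6 and 97.1 and 99.5 for KLF2 with vehicle. KLF2, KLF3 and KLF4 ranked lower with CDDD11-8, which is 3 of 9 members against 42.2% of all genes, and 0 of 9 ranked higher against 9.03% of all genes. KLF2 fell to 86.0 and 89.1, KLF3 went from 94.2 and 96.6 to 90.9 and 85.9, and KLF4 went from 96.1 and 93.9 to 73.5 and 80.0. KLF6, at 99.7 and 91.0 with CDDD11-8, overlapped with vehicle.

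The CDDD11-8 lists were shorter overall with about as many promoter peaks, so each peak was also ranked among promoter peaks alone. In that ranking KLF9 and KLF10 ranked higher with CDDD11-8, against 24.9% of all genes. KLF9 stood at 19.8 and 21.2 with vehicle and at 23.8 and 30.5 with CDDD11-8, and KLF10 at 19.5 and 28.6 and then at 61.0 and 36.5. KLF2, at 78.8 and 96.4 and then 58.8 and 72.0, and KLF4, at 72.6 and 64.7 and then 28.4 and 51.1, ranked lower in that comparison too, against 22.2% of all genes. KLF3 did not, with 63.2 and 78.7 against 72.0 and 64.3. Without vehicle replicate 1, 8 of 9 members ranked lower among all peaks, against 63.9% of all genes, and without vehicle replicate 2, 5 of 9 ranked higher, against 31.0%.

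KLF5, a factor of basal and proliferating epithelium, was occupied at its canonical start, 4029 bp downstream of the start of its longest isoform. The peak there was 544 and 1120 bp wide with vehicle and 1523 and 1595 bp wide with CDDD11-8. Its fold percentile was 21.1 and 38.7 with vehicle and 63.0 and 59.3 with CDDD11-8. The groups were apart, and with canonical starts KLF5 was the only member whose percentile was higher with CDDD11-8, 1 of 10 against 9.07% of all genes. With equal numbers of peaks in every list and the longest isoforms, KLF9, KLF10 and KLF11 ranked higher too, against 38.3% of all genes. Among promoter peaks alone KLF5 was higher too but stayed low, at 8.25 and 4.59 and then 10.3 and 13.1. With the longest isoforms, 24.9% of all genes were higher in that ranking. At canonical starts 10 of 10 members had a promoter peak in every library. The gene body of the longest isoform of KLF5 held no other peak. With this peak included, 2.15% and 4.43% of its bases were covered with vehicle and 6.03% and 6.31% with CDDD11-8. Measured from the canonical start, the body was covered over 0% and 2.23% with vehicle and 3.42% and 2.59% with CDDD11-8.

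Gene body coverage is the percentage of bases inside a peak in the stretch that begins 300 bp downstream of the TSS and ends 3 kb past the TES. Coverage was higher with CDDD11-8 in KLF4, KLF9, KLF10, KLF11 and KLF16, which is 5 of 9 members against 21.5% of 9602 genes. It was lower in KLF3 alone, 1 of 9 members against 45.3% of all genes, and the groups overlapped for KLF2, KLF6 and KLF13. Among the 4010 genes at least 3 kb from any other protein-coding gene, a set that holds every member with a promoter peak but KLF11, 24.5% were higher and 44.9% lower. Leaving out vehicle replicate 2 gave 2 members with lower coverage, against 57.7% of all genes, and leaving out CDDD11-8 replicate 1 gave 3, namely KLF2, KLF3 and KLF6, against 57.3%.

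**Figure D3:**
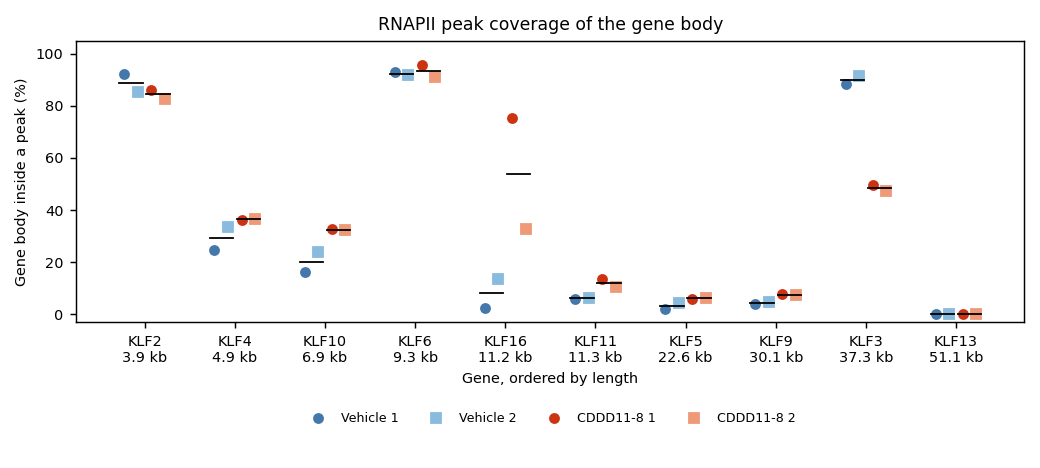
RNAPII peak coverage of the gene body (percent of bases) for the 10 genes ordered by length, with one point per library and a line at each group mean. KLF3 falls from near 90% to near 48%, KLF2 and KLF6 stay above 80% in all 4 libraries, and the 2 CDDD11-8 points of KLF16 are far apart.

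In the 5 genes with higher coverage most or all of the mean gain lay in the promoter peak. KLF10 was covered over 16.4% and 24.0% with vehicle and 32.6% and 32.2% with CDDD11-8, and with CDDD11-8 all of this coverage was the promoter peak. KLF4 went from 24.7% and 33.6% to 36.3% and 36.6%, and KLF9 from 3.81% and 4.60% to 7.63% and 7.28%. KLF11 went from 5.75% and 6.36% to 13.7% and 10.6%, of which the promoter peak held 13.7% and 8.04%. The rest of KLF4, KLF9, KLF10 and KLF11, and all of the 3 kb after their TES, carried few or no peaks in either condition.

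KLF16 had 2.51% and 13.6% of its body covered with vehicle and 75.2% and 32.7% with CDDD11-8. The promoter peak held 0% of the body in both vehicle libraries and 36.6% and 19.9% with CDDD11-8, and the remainder lay in separate peaks. The CDDD11-8 libraries differed from each other by more than the lower of them differed from vehicle. KLF16 sits in a cluster of peaks, with ABHD17A ending at -13231 bp from its TSS and REXO1, on the same strand, starting 3916 bp after its TES. In CDDD11-8 replicate 1 a single peak of 10706 bp ran from -564 bp to 10141 bp around the KLF16 TES, across the REXO1 start. In CDDD11-8 replicate 2 the peak over the REXO1 start was 4457 bp wide and began 2275 bp after the TES. With vehicle the peaks over the REXO1 start were 1319 and 2178 bp wide and began 3397 and 3167 bp after the TES. With CDDD11-8 the coverage near the 3′ end of KLF16 therefore includes parts of peaks that also span the REXO1 start. The 2 genes, and the antisense transcript that starts next to the KLF16 TES, cannot be told apart there.

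KLF2 and KLF6 stayed covered along their length. KLF2 was covered over 92.2% and 85.4% with vehicle and 86.2% and 82.7% with CDDD11-8, and between position 2 kb and its TES it was covered over 100% in all 4 libraries. KLF6 was covered over 92.9% and 91.8% with vehicle and 95.5% and 90.9% with CDDD11-8. Between position 2 kb and its TES, KLF6 had 96.1% in both vehicle libraries and 95.4% and 89.1% with CDDD11-8. Over this stretch it therefore counted as lower. Both were set against genes of like length that were also covered along their length with vehicle. Of 106 genes under 5 kb that were covered over at least 80% in both vehicle libraries, 59 (55.7%) stayed above 80% in both CDDD11-8 libraries, KLF2 among them. Of 129 such genes of 5 to 15 kb, 30 (23.3%) did, KLF6 among them, and their median coverage was 69.5% and 49.0% with CDDD11-8. These coverage limits were chosen after the values had been seen.

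KLF13 was the other extreme. Its body, the longest of the family, had 0% and 0.0428% covered with vehicle and 0% and 0.0763% with CDDD11-8. RNAPII peaks at KLF13 were limited to the start of the gene and the first kilobases upstream in all 4 libraries, and nothing after the TES was covered. Read by length, coverage was called higher in 16.4% and lower in 31.7% of 926 genes under 5 kb, with 1 of the 2 members of this length (KLF4) higher. For 2103 genes of 5 to 15 kb these shares were 17.5% and 45.2%, with KLF10, KLF11 and KLF16 higher and KLF6 overlapping. For 3525 genes of 15 to 50 kb they were 18.4% and 51.1%, with KLF9 higher and KLF3 lower, and for 3048 genes of 50 kb and over they were 29.5% and 42.8%, with KLF13 overlapping.

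**Figure D4:**
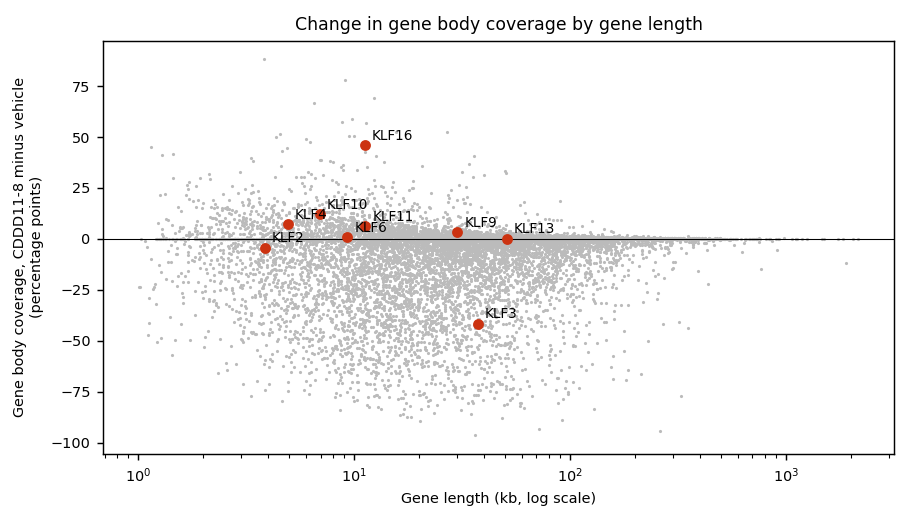
Change in RNAPII gene body coverage (CDDD11-8 mean minus vehicle mean, percentage points) against gene length (kb, log axis), with all other measured genes in grey and the Krüppel-like factor genes named. KLF3 lies lowest among the named genes and KLF16 highest, and KLF6, KLF9, KLF10, KLF11 and KLF13 lie between just above 0 and 12.2.

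KLF3 is a repressor studied in erythroid and fat cells. Its peak coverage was nearly all lost in the middle, partly lost towards the TES and mostly kept next to the TSS. Its body was covered over 88.5% and 91.5% with vehicle (mean 90.0% ± 2.14, SD, n = 2) and 49.5% and 47.3% with CDDD11-8 (48.4% ± 1.58, SD, n = 2). The groups were apart by far more than the replicates within them. When the gene was cut into 3 equal parts, the part next to the TSS was covered over 98.4% and 96.2% with vehicle and 92.6% and 82.9% with CDDD11-8. The middle part fell from 84.1% and 86.2% to 0% and 2.32%. The part next to the TES went from 84.4% and 93.4% to 44.9% and 45.2%.

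The longest stretch of KLF3 without a peak measured 800 and 823 bp with vehicle. With CDDD11-8 it measured 17578 bp in replicate 1, from 12093 to 29672 bp after the TSS, and 11955 bp in replicate 2, from 14161 to 26117 bp. In bins of 3 kb, the 3 bins from 15 to 24 kb after the TSS were covered over 80.0% to 92.3% with vehicle. They were covered over 0% in both CDDD11-8 libraries. The vehicle summits there were weak, with pileups of 12 to 24 in replicate 1 and 11 to 31 in replicate 2. The lowest pileups listed were 12 and 11 with vehicle and 11.1 and 11.5 with CDDD11-8. The 0% therefore means that no summit passed the threshold of the list, and how much signal remained is unknown. Coverage came back towards the TES, and the bin from 33 to 36 kb was covered over 78.9% and 84.3% with CDDD11-8. At the 5′ end the bin from 9 to 12 kb was still covered over 100% in both CDDD11-8 libraries.

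**Figure D5:**
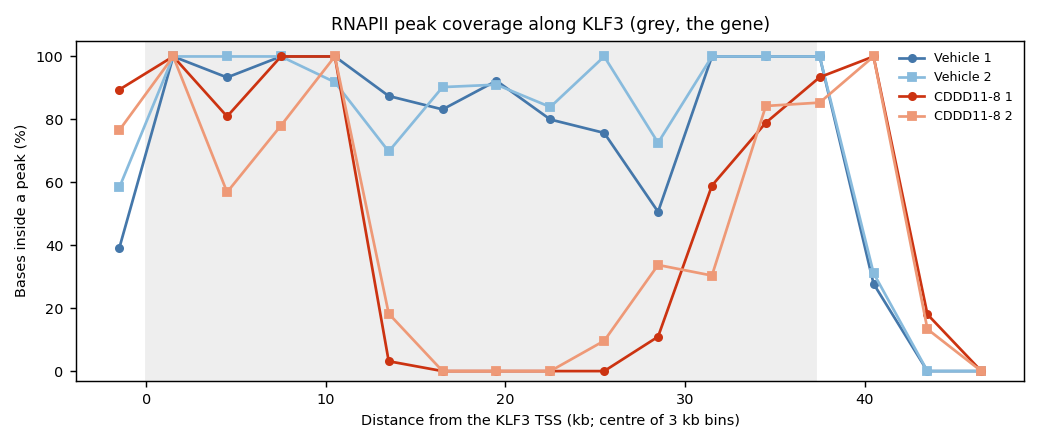
Percentage of bases inside an RNAPII peak in 3 kb bins along KLF3, by distance from the TSS (kb), for each library, with the gene shaded. Both CDDD11-8 lines drop to 0 between 15 and 24 kb, rise again towards the TES and lie above both vehicle lines after it.

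Among genes of this length, the middle part was called lower in 34% and the part next to the TES in 43.6%. These parts were called higher in 1.67% and 2.58%. Over the 3525 genes of 15 to 50 kb the mean coverage of the middle part was 22.8% and 15.4% with vehicle and 6.42% and 3.92% with CDDD11-8, and the part next to the TES went from 29.7% and 23.7% to 10.8% and 6.54%. Of 57 genes of this length with at least 80% of each part covered in both vehicle libraries, 18 had at most 5% of the middle part covered in both CDDD11-8 libraries and 15 had at least 40% of the last part covered. KLF3 was the 1 gene of the 57 with both, by limits set with its own values known, so this count is a description only. The log2 ratio of the fold enrichment of the promoter peak of KLF3 to that of its highest gene body peak was -0.74 and 0.46 with vehicle and 1.75 and 0.79 with CDDD11-8. For KLF6 this ratio was 0.15 and 2.14 with vehicle and 2.27 and 1.61 with CDDD11-8, and the groups overlapped.

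Coverage of the 3 kb after the TES was higher with CDDD11-8 in KLF3, KLF6 and KLF16, which is 3 of 9 members against 3.04% of all genes. It was lower in 0 of 9 members and in 39.7% of all genes. No loss could be seen in KLF4, KLF9, KLF10, KLF11 and KLF13, which had no peak there in any library. Of 5601 genes with some coverage after the TES in both vehicle libraries, 4.28% were higher and 68.1% lower with CDDD11-8, and this set held KLF2, KLF3, KLF6 and KLF16.

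KLF3 was covered over 83.8% and 87.2% of these 3 kb with vehicle and over 100% in both CDDD11-8 libraries. The peak across its TES ended 2514 and 2615 bp after the TES with vehicle and 5222 and 5081 bp after it with CDDD11-8. The end of a TES-spanning peak moved further downstream in 30.1% and less far in 26.7% of 1747 genes that had such a peak in every library. Over 10 kb after the TES, coverage of KLF3 rose from 25.1% and 26.2% to 52.2% and 50.8%.

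KLF6 was covered over 81.1% and 76.8% with vehicle and 93.2% and 90.2% with CDDD11-8. Its TES-spanning peak ended 2432 and 2305 bp after the TES with vehicle and 2545 and 2499 bp after it with CDDD11-8. A separate peak, listed with CDDD11-8 only, ran from 2751 to 4332 bp after the TES in replicate 1 and from 2795 to 4337 bp in replicate 2. No protein-coding gene lay within 3 kb of KLF3 or KLF6. Among the 129 genes of 5 to 15 kb that were covered over at least 80% in both vehicle libraries, KLF6 was the only one with higher coverage after the TES, and 69% were lower.

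KLF2 did not follow, with 83.0% and 68.0% after the TES with vehicle and 69.8% and 62.2% with CDDD11-8, and its groups overlapped. KLF16 had 11.6% and 11.1% with vehicle and 100% and 49.3% with CDDD11-8. With CDDD11-8 this stretch held part of the peak that also spans the REXO1 start. With the same number of peaks kept in every library, 21842, coverage of the KLF3 body was 67.4% and 87.4% with vehicle and 47.5% and 47.3% with CDDD11-8, and coverage after the TES of KLF3 and KLF6 kept the values given above.

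The other members of the family and related genes were examined as fixed lists. None of the 8 further KLF genes had a promoter peak in all 4 libraries, and 6 of them (KLF7, KLF8, KLF14, KLF15, KLF17 and KLF18) had one in no library. Of the 9 SP genes, which encode the closest relatives of the Krüppel-like factors, SP1, SP2, SP3 and SP4 had a promoter peak in all 4 libraries. Coverage of the body was lower in SP1, SP2 and SP3, higher in none, and overlapping in SP4, and 45.3% of all genes were lower. SP3, which competes with SP1 for GC boxes, went from 87.5% and 77.3% to 10.8% and 9.14%, and SP1 from 66.0% and 38.3% to 9.26% and 7.48%. After the TES, SP1 was covered over 100% in both vehicle libraries and 0% in both CDDD11-8 libraries.

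Of 22 genes for regulators and partners of the family, 14 had a promoter peak in all 4 libraries. The promoter peak was wider with CDDD11-8 in 12 of these 14 and narrower in 0, against 64.4% and 9.42% of all genes. Body coverage was lower in 8, higher in 2 and overlapping in 4, against 45.3% lower and 21.5% higher over all genes. Coverage after the TES was lower in 7 and higher in 0, against 39.7% and 3.04%. CTBP2, a corepressor that KLF3 binds, went from 62.9% and 37.1% to 21.7% and 13.6% of its body. CREBBP, an acetyltransferase that several activators of the family recruit, went from 24.7% and 8.72% to 1.80% and 1.46%, and FBXW7, part of a ubiquitin ligase that targets KLF5, from 9.59% and 8.34% to 3.44% and 2.35%. MAP2K5, the kinase upstream of ERK5 in the induction of KLF2 and KLF4, was one of the 2 with higher coverage, at 0.611% and 0.532% with vehicle and 0.814% and 0.699% with CDDD11-8.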

How the data were processed

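RNAPII ChIP-seq peak lists of 4 libraries were used, 2 with vehicle and 2 with 600 nM CDDD11-8 for 4 h. Per the labels and the study's methods, the authors aligned reads to GRCh37 (hg19) with Bowtie2 and called peaks against input with MACS2, library by library; tool versions are not given in the sources used here. The deposited lists hold, for each summit, region start, end and length in bp, the summit's pileup (a signal, listed from 11 upward), the fold enrichment over input (a ratio) and −log10 p- and q-values. The CDDD11-8 pileups are not whole numbers and so were scaled before deposit, so heights were compared only as percentiles within a list. Lists called at a threshold also hold fewer weak peaks where background differs, which can shorten or remove low coverage.

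Summits of the same region were joined into peaks. The promoter peak was the highest by fold enrichment overlapping the 300 bp on either side of the TSS by at least 1 bp, and ties in a percentile counted equally on both sides. TSS and TES came from the longest protein-coding transcript in GENCODE release 44 mapped to GRCh37, and upstream sequence from the GRCh37 primary assembly. Genes shorter than 1 kb were left out of body measures. Members, further lists and the alternatives were chosen with earlier results of these data known. All 10 members were named by rule, as were the SP genes and the 4 longest regulators or partners with a promoter peak in every library. Groups were compared by separation of libraries and the exact permutation test, and p-values over libraries measure only the spread between passages. The scripts, tested on simulated data, used Python 3.11.15, numpy 2.4.6, pandas 2.3.3 and scipy 1.17.1. Input libraries were not used. No sequence is printed for KLF10 or for KLF3, whose window overlaps annotated exons.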

Additional observations from a re-analysis of the deposited data

How the results depend on the processing

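Of the summary counts over the 9 members, 117 values under other settings stayed within 1.5 times the main count and 26 moved. Of the differences of single members, 462 moved by less than the spread between replicates, 34 moved by more and 1, that of KLF3, was counted as reversed. With equal numbers of peaks per library the fold percentile of KLF3 was 2.50 higher with CDDD11-8 instead of lower. In that setting 3 members had a higher percentile instead of 0, against 38.3% of all genes. KLF9 and KLF16, whose groups overlapped in the main setting, were not counted as reversed but also changed sign. Their percentile differences went from -0.48 to 36.0 and from -2.31 to 21.4. With a −log10 q of at least 5 they were 8.28 and 2.66. Ranking among promoter peaks gave 2 members higher, against 24.9% of all genes, and canonical isoforms gave 1 higher. Ranking by pileup gave 8 lower instead of 3. Requiring the highest summit inside the promoter window left 2 members with a promoter peak, KLF2 and KLF3. Of these, 1 was wider, against 72.4% of all genes, and 0 reached further downstream, against 64.3%. Body coverage was higher in 0, against 24.2%, and coverage after the TES was higher in 1, against 2.44%. Merging peaks within 1 kb gave 1 narrower member and 1 reaching less far downstream, and measuring the body between position 2 kb and the TES gave 2 members with lower coverage. Counts given here without a share of all genes describe the settings only. The cause of these moves was not tested.

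With each library left out in turn, 9 to 9 members had a promoter peak, 6 to 9 were wider, 0 to 2 narrower, 5 to 7 reached further downstream and 0 to 2 less far. Higher body coverage held for 5 to 6 and lower for 1 to 3, higher coverage after the TES for 3 to 3 and lower for 0 to 1, and the fold percentile was higher for 0 to 5 and lower for 3 to 8. The extremes came without vehicle replicate 1 for narrower and lower-ranking members, without vehicle replicate 2 for wider and higher-ranking members, and without CDDD11-8 replicate 1 for lower body coverage and peaks reaching less far downstream; lower coverage after the TES came without either of the last 2. In these comparisons a single library stands for its group, so the spread within that group cannot be seen. The share of all genes called also changed with the library left out, as given above for wider, narrower and ranking members. These ranges are therefore not read as results about the members. With the replicate number as a block, 1 member reached less far downstream, 2 had lower body coverage and 1 had lower coverage after the TES; the other counts stayed within 1.5 times the main count. No such value exists for the presence of a promoter peak. The blocked counts stand without a share of all genes and are a description only. The paper describes 2 replicate experiments on consecutive passages. Neither it nor the labels tie equal replicate numbers to a shared experiment or batch. There are only 2 pairs, so the block rests on the numbers in the names. Depth is unknown, and absence of a peak means only that none passed the threshold of the list.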
